A study of Homo sapiens with 33 samples.

Results

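Histone genes were followed on oligonucleotide arrays of 2 anaplastic large cell lymphoma (ALCL) lines in which the ALK kinase was either knocked down with an inducible hairpin or exposed to ALK inhibitors. The genes were chosen by symbol alone. Of 22215 probe sets on the array, 77 carried only histone symbols (those that begin with H1-, H2A, H2B, H3-, H3C, H4- or H4C, or the older HIST symbols). They name 72 of the 13119 genes annotated on the array. By their symbols, 62 of the 77 belonged to the replication-dependent clusters, 14 to histone variants, and 1, for H2BC12L, to neither class. The 62 cluster probe sets comprised 6 for linker histone H1, 13 for H2A, 17 for H2B, 10 for H3, 14 for H4 and 2 annotated to both H2A and H3 genes. Cluster genes are near-copies of each other, so 21 of the 77 probe sets carried several symbols, up to 14, and are given here by probe set identifier and histone family. Cross-hybridisation between copies can also touch probe sets with 1 symbol, above all those whose identifier ends in _x_at or _s_at.

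The samples were total RNA of 33 cell pellets, in 11 groups of 3, each hybridised to 1 Affymetrix HG-U133A array. The hairpin groups came from TS, a subclone of Sup-M2, and from Su-DHL1. Both lines had received a lentiviral doxycycline-controlled repressor (tTRKRAB, with DsRed) and then a GFP-marked hairpin vector, were sorted for both colours under inducer, and were sorted again to remove cells with GFP in its absence. TS cells carried the ALK hairpin A5 with doxycycline (1 microg/ml) for 84 h, the mutated hairpin A5M with doxycycline for 84 h, or A5 without doxycycline. TS cells with A5 were also measured at 72 h with and without doxycycline, as were Su-DHL1 cells. The remaining groups were TS cells exposed for 6 h to 300 nM of the ALK inhibitor A2, the ALK inhibitor A3 or the compound A1, or left as the control U. All 3 compounds are described as derived from pyrrolocarbazole. A1 is called a mock compound in the study design but an ALK inhibitor in its sample descriptions, and U is called untreated in the descriptions and diluent control in the design. Uninduced cells carried no doxycycline, so the inducer itself differed in those comparisons, and the A5M cells are the group that shared it. The labels do not say that the 3 samples of a group were separate cultures. A p-value here therefore reflects only how far these samples differed, possibly for technical reasons.

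Histones package DNA into nucleosomes, each a core of H2A, H2B, H3 and H4, with H1 binding the linker DNA between them. Replication-dependent histone genes lie in clusters, are transcribed mainly in S phase, and yield messages that end in a stem-loop in place of a poly(A) tail. SLBP, the protein that binds that stem-loop, governs their processing and decay. Variant genes such as H2AZ1, H2AZ2 and H3-3A lie alone, carry introns and are polyadenylated at all phases of the cycle. H2AX, the variant phosphorylated at DNA breaks, can make both kinds of message. Cluster genes can also give polyadenylated transcripts, which have been described in cells that leave the cycle and differentiate. Standard Affymetrix labelling primes on poly(A), so a cluster probe set reads the polyadenylated form more readily than the stem-loop form, and these arrays cannot apportion a signal between them. ALK-positive ALCL depends on an ALK fusion kinase, usually NPM1-ALK, for growth.

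The promoters of the genes that carried the largest changes are shown because cluster genes of opposite strands share short intergenic regions and because the classes differ in their promoter elements. RefSeq windows (build GRCh38.p14) were found for 66 of the 72 histone genes named by the probe sets. Each line gives the 200 bases before the annotated start, 5′ to 3′ on the strand of the gene. Capitals mark 3 motifs searched on both strands. They are the CCAAT box (CCAAT, which reads ATTGG on the other strand), the TATA element (TATAAA, which reads TTTATA) and the octamer (ATTTGCAT, which reads ATGCAAAT). None of them contains another. The first 4 genes rose after ALK knockdown and the last 3 fell.
H2AC6 (chr6:26123972-26124171, plus strand): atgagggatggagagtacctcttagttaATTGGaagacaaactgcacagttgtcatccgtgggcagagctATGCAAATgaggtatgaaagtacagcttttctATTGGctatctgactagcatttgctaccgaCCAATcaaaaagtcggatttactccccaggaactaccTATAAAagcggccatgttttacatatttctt
H2BC5 (chr6:26157921-26158120, plus strand): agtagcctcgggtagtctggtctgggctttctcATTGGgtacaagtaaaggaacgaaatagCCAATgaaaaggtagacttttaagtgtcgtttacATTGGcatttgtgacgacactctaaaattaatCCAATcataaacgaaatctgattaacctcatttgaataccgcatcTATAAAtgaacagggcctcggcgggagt
H2BC12 (chr6:27146859-27147058, minus strand): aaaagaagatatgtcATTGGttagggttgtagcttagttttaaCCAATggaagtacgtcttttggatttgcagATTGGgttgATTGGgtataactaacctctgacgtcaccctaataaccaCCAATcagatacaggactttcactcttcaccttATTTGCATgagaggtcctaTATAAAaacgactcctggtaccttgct
H1-2 (chr6:26056471-26056670, minus strand): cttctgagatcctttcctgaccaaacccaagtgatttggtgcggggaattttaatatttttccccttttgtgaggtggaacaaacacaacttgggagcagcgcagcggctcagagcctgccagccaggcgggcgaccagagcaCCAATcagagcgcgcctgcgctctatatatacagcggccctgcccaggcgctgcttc
H2AZ1 (chr4:99950276-99950475, minus strand): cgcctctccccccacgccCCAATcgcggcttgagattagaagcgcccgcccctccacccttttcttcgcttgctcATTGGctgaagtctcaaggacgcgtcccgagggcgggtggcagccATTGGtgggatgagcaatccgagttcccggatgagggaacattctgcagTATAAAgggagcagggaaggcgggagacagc
H2AZ2 (chr7:44848088-44848287, minus strand): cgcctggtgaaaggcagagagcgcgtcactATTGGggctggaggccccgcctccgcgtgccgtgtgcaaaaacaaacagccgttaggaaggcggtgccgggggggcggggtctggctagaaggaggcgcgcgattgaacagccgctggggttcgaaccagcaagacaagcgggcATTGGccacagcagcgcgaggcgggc
H2AX (chr11:119095466-119095665, minus strand): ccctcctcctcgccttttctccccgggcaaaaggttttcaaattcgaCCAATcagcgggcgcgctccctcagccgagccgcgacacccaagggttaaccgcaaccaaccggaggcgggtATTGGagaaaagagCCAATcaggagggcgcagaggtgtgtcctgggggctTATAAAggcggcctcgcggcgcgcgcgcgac
The octamer stands in the windows of H2AC6 and H2BC12, and TATAAA in those of H2AC6, H2BC5, H2BC12, H2AZ1 and H2AX. The CCAAT box stands in all 7, with 3 matches for H2AC6, 4 for H2BC5, 5 for H2BC12, 1 for H1-2, 3 for H2AZ1, 2 for H2AZ2 and 3 for H2AX. The counts that follow cover all histone genes with a window, also those that no probe set here names. Over the 250 bases before the start, ATTTGCAT was found for 26 of 65 replication-dependent genes (40%), for 1 of 18 variant genes (5.56%) and for 2.03% of 27305 genes with a window. Within the clusters it was found for 14 of 18 H2B genes and 11 of 16 H2A genes, against 1 of 12 H3 genes, 0 of 13 H4 genes and 0 of 6 H1 genes. CCAAT was found for 55 of the 65 cluster genes (84.6%), 16 of the 18 variant genes (88.9%) and 37% of all. TATAAA was found for 67.7% of cluster genes, 33.3% of variant genes and 13% of all. A match says only that these letters stand in the window.

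The deposited values were signals of the MAS5 algorithm, on a linear scale. All arrays had been scaled to one level, and replicates correlated at 0.969 to 0.985 on the log2 scale. The targeted gene followed the labels: the ALK probe set 208212_s_at averaged 248 ± 44.2 in TS cells with the induced ALK hairpin at 84 h and 1686 ± 46.5 with the mutated hairpin, against 2039 ± 97.2 in uninduced cells (SD, n = 3 each). At 72 h it averaged 330.2 induced against 1823 uninduced in TS, while in Su-DHL1 the means were 637.2 and 2966. Of genes that mark ALCL, ALK, TNFRSF8 (CD30), GZMB, PRF1, IL2RA and TNFRSF1A lay above the 40th percentile on all 33 arrays. Of T cell genes CD3D did so on 33 arrays, CD3E on 31, CD4 on 24, CD2 on 18, CD247 on 6, CD3G on 2 and CD7 on 0. Of B cell genes CD22 did so on 32, CD79A on 11, MS4A1 on 9 and CD79B on 0, and of myeloid genes MPO on 8 and CD14 and LYZ on 0. The ratio of the 3' to the 5' ACTB control, a sign of RNA integrity, was 1.27 with the induced ALK hairpin against 1.54 uninduced in TS cells at 84 h, 1.32 against 1.59 at 72 h, and 1.36 against 1.39 in Su-DHL1 cells. It was 1.05 with A2 and 1.06 with A3, against 1.33 with A1 and 1.18 in U. Its part in the results below was not tested beyond the values given.

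To enter a fit, a probe set had to lie at or above the 40th percentile of the array on 3 or more arrays, and log2(signal + 11) was fitted with limma. A fold change is on that scale, which understates the change of dim probe sets. In the hairpin arrays 49 of the 77 passed (37 cluster, 11 variant, H2BC12L), in the inhibitor arrays 42 passed (30, 11 and H2BC12L), and 28 passed in neither. Of the 37 cluster probe sets in the hairpin fit, 4 passed only through arrays with the induced ALK hairpin, 5 only through the remaining arrays and 28 through both. Of the 30 in the inhibitor fit, 9 passed only through A2 or A3 arrays, none only through A1 or U, 19 through both and 2 only over all arrays together. The 9 were bound to lie higher with the inhibitors, so counts over the probe sets that passed in both arms are given beside the full ones. All 11 variant probe sets passed in both arms.

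**Figure D1:**
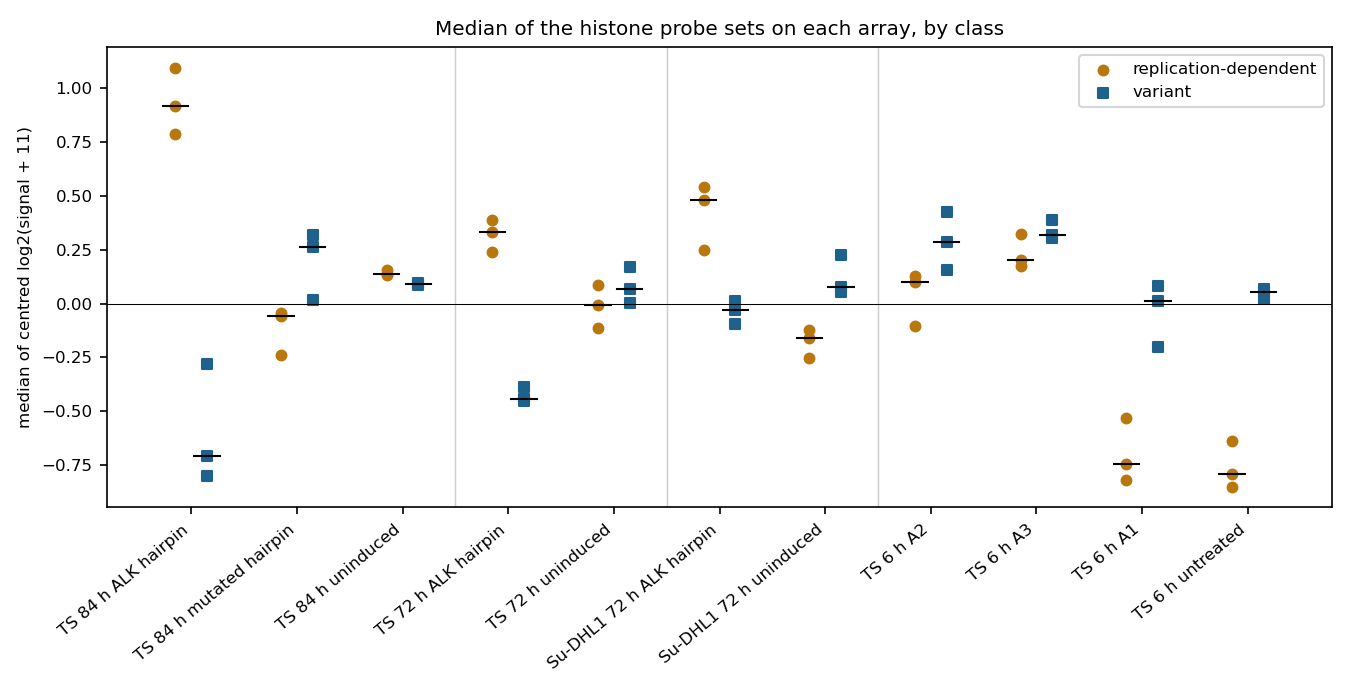
Median, on each of the 33 arrays, of log2(signal + 11) centred on each probe set's mean over all arrays, for the 30 replication-dependent (circles) and 11 variant (squares) probe sets that passed in both experiments; lines mark the middle of 3 arrays. The cluster median was highest in TS cells with the ALK hairpin at 84 h and lowest in A1 and U, whereas the variant median was lowest in TS cells with the ALK hairpin.

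Across the 11 groups the 2 classes parted after ALK knockdown. After centring each probe set on its own mean, the median over 30 cluster probe sets was 0.79, 0.92 and 1.09 on the 3 arrays of TS cells with the induced ALK hairpin at 84 h, -0.24, -0.06 and -0.04 with the mutated hairpin and 0.13, 0.14 and 0.16 in uninduced cells. The variant medians on the same arrays were -0.80, -0.71 and -0.28, 0.02, 0.26 and 0.32 and 0.08, 0.09 and 0.09. Thus the cluster median lay above and the variant median below every other array of that time point. At 72 h the cluster medians were 0.24, 0.33 and 0.39 with the ALK hairpin against -0.11, -0.01 and 0.09 uninduced in TS cells, and 0.25, 0.48 and 0.54 against -0.25, -0.16 and -0.12 in Su-DHL1 cells. The variant medians at 72 h were -0.45, -0.45 and -0.39 with the ALK hairpin against 0.00, 0.07 and 0.17 uninduced in TS cells, and -0.09, -0.03 and 0.01 against 0.06, 0.08 and 0.22 in Su-DHL1 cells. Both classes kept their arrays apart in each line, by less in Su-DHL1 for the variants. In the 6 h experiment the cluster medians were -0.11, 0.10 and 0.13 with A2 and 0.18, 0.20 and 0.32 with A3, against -0.82, -0.75 and -0.53 with A1 and -0.85, -0.79 and -0.64 in U. The variant medians were 0.15, 0.29 and 0.42 with A2 and 0.31, 0.32 and 0.39 with A3, against -0.20, 0.01 and 0.08 with A1 and 0.02, 0.05 and 0.07 in U, so both classes stood above A1 there. Of the 30 cluster probe sets, 9 had passed only through A2 or A3 arrays. Over the 19 that passed in both arms of both experiments, the cluster medians were -0.11, 0.09 and 0.16 with A2 and 0.04, 0.13 and 0.34 with A3, against -0.81, -0.69 and -0.54 with A1 and -0.90, -0.80 and -0.62 in U. At 84 h those 19 had medians of 0.84, 0.94 and 1.10 with the induced ALK hairpin and -0.27, -0.10 and 0.04 with the mutated hairpin, against -0.01, 0.02 and 0.09 uninduced.

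Averaged over the 3 settings with the ALK hairpin (TS at 84 h and 72 h, Su-DHL1 at 72 h), most cluster probe sets that were called rose and most variant ones fell. Of the 37 cluster probe sets tested, 21 rose and 4 fell (limma, adjusted p below 0.05), and of the 11 variant probe sets 1 rose and 8 fell. Among all 15338 probe sets tested 47.8% were called in this comparison, 27.8% as higher and 19.9% as lower. The median log2 fold change was 0.49 for the cluster probe sets and -0.52 for the variants, beside 0.07 for all probe sets tested. Over the 28 cluster probe sets that passed in both arms, 18 rose and 3 fell, with a median of 0.51. With the ACTB ratio in the model, 14 cluster probe sets rose and 1 fell, and 1 variant probe set rose and 6 fell. For that model no share over all probe sets is given, here or below. A general loss of calls therefore cannot be told from one particular to histones.

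Among the cluster genes, H2AC6, which encodes a canonical H2A, changed most. Signals at 84 h in TS cells were 2282, 1730.2 and 1707 with the induced ALK hairpin and 192, 189.7 and 179 with the mutated hairpin, against 194, 183 and 215 in uninduced cells. At 72 h in TS cells they were 891, 856 and 778 with the ALK hairpin, against 147, 136 and 114 uninduced. In Su-DHL1 cells at 72 h they were 822, 913 and 1007 with the ALK hairpin, against 240.4, 239 and 228 uninduced. The induced arrays lay far above the others in each setting, with no overlap. The log2 fold change against uninduced cells was 3.19 ± 0.12 at 84 h and 2.58 ± 0.12 at 72 h in TS cells and 1.90 ± 0.12 in Su-DHL1 cells, and 2.56 ± 0.07 on average (SE; limma, adjusted p = 1.03e-18), a 5.88-fold rise. Its start lies 246 bases from that of H2BC4, a divergent H2B gene, and the 200 bases printed above lie between the 2 starts.

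H2BC5 and H2BC12, which encode canonical H2B, followed. For H2BC5, signals at 84 h in TS cells were 1813, 1289 and 1389 with the induced ALK hairpin and 195, 180.2 and 156 with the mutated hairpin, against 264, 282 and 273 in uninduced cells. TS cells at 72 h gave 816, 719.9 and 703 with the ALK hairpin, against 200.3, 198 and 173 uninduced. Su-DHL1 cells gave 588, 554 and 518 with the ALK hairpin, against 211, 206 and 163 uninduced. The groups did not overlap, and the average log2 fold change was 1.93 ± 0.07 (adjusted p = 3.72e-16, limma). A second H2BC5 probe set, 222067_x_at, rose by 1.08 on average (adjusted p = 5.17e-05), but its values with the ALK hairpin at 72 h scattered (561, 195 and 729 in TS, 404, 195 and 144 in Su-DHL1) and in TS overlapped those of uninduced cells (158, 227 and 212). For H2BC12, signals at 84 h in TS cells were 1282, 1245 and 1229 with the induced ALK hairpin and 234, 246 and 330 with the mutated hairpin, against 258, 284 and 309 in uninduced cells. The TS arrays at 72 h gave 994, 998 and 846 with the ALK hairpin, against 199.8, 222 and 209.8 uninduced. The Su-DHL1 arrays gave 1332, 1468 and 1272 with the ALK hairpin, against 611, 620.2 and 491 uninduced. Every induced array lay above every uninduced one of its setting, and the average log2 fold change was 1.81 ± 0.07 (adjusted p = 4.61e-16, limma).

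H1-2, a replication-dependent linker histone, also rose. Signals at 84 h in TS cells were 596, 453 and 463 with the induced ALK hairpin and 69, 67.3 and 84.6 with the mutated hairpin, against 93.1, 97.8 and 87.8 in uninduced cells. In TS cells at 72 h the values were 225, 166 and 168 with the ALK hairpin, against 60.5, 61.7 and 97.8 uninduced. For Su-DHL1 the values were 281, 306 and 269.7 with the ALK hairpin, against 68.1, 118 and 147 uninduced. All induced arrays lay above all uninduced ones of their setting, by an average log2 fold change of 1.63 ± 0.12 (adjusted p = 3.56e-11, limma). The other cluster linker histone that passed, H1-3, did not pass the test on average (log2 fold change -0.11 ± 0.15, adjusted p = 0.606).

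**Figure D2:**
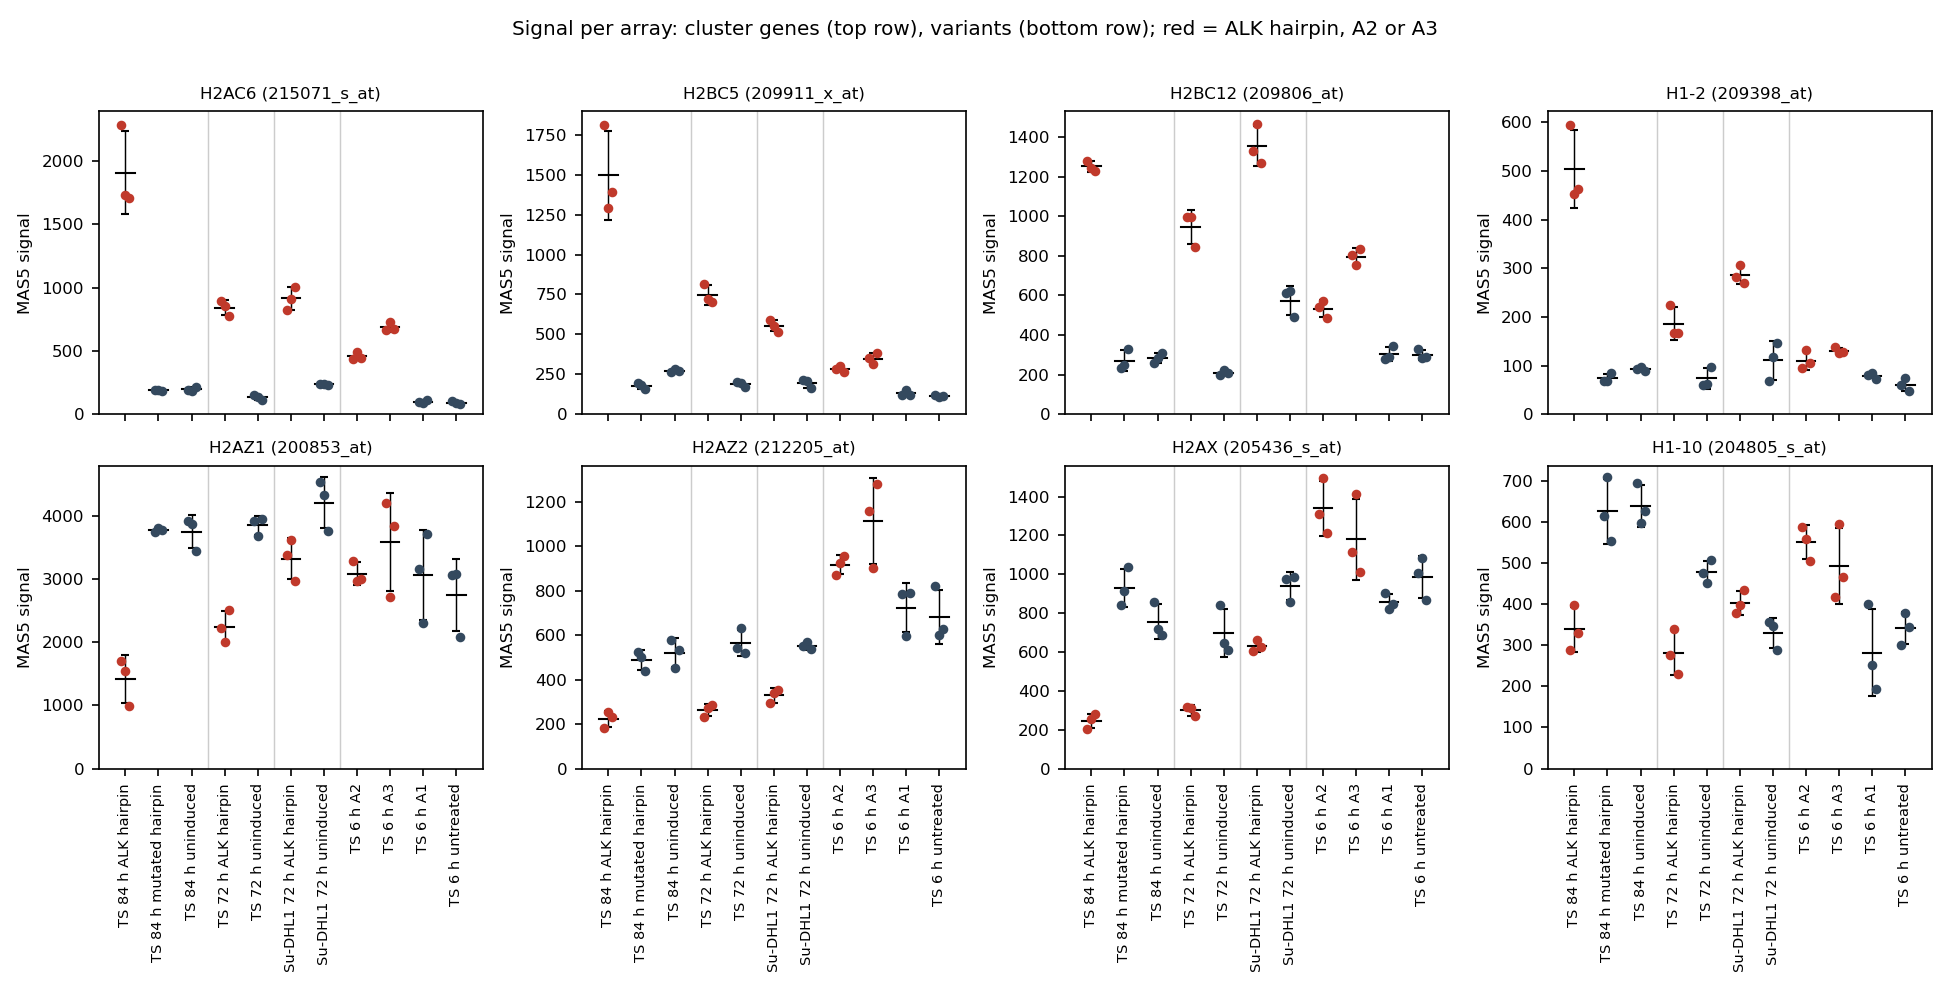
MAS5 signal on each of the 3 arrays of the 11 groups (linear axes from 0) for 4 cluster genes (upper row) and 4 variant genes (lower row); lines are means, bars SDs, and red points are groups with the induced ALK hairpin, A2 or A3. In the upper row the red groups stand above the groups they were compared with, least for H1-2 with A2. The means of H2AZ2 and H2AX are low after the ALK hairpin, and higher with A2 and A3 than with A1.

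Some probe sets shared by several cluster genes rose as well, while others fell. The H2B probe set 214455_at, annotated to 5 genes, rose by 1.85 on average (adjusted p = 2.52e-09, limma), with signals of 146, 155 and 132 with the ALK hairpin at 84 h against 19.4, 17.8 and 24.7 uninduced. The H3 probe set 206110_at, annotated to 10 genes, rose by 1.68 (adjusted p = 9.49e-08), with 139, 138 and 111 at 84 h against 25.9, 50.1 and 28.6 uninduced. The uninduced values of both lay under or near the 40th percentile of their arrays (33.3 to 44.2 over all arrays), so their fold changes depend on the added value of 11. Both entered the fit only through arrays with the induced ALK hairpin, so they were bound to lie higher there. By family, 10 of 11 H2B probe sets rose on average and none fell, as did 5 of 8 for H2A, whereas 1 of 6 H3 probe sets rose and 1 fell, and 3 of 8 H4 probe sets rose and 3 fell. The shares over all probe sets in this average were 27.8% higher and 19.9% lower. Whether the H3 and H4 counts differ from those shares was not tested. The median log2 fold changes were 0.78 for H2B, 0.30 for H2A, 0.02 for H3 and -0.05 for H4. Over the probe sets that passed in both arms, 9 of 10 rose for H2B and 5 of 7 for H2A, whereas none of 2 rose and 1 fell for H3, and 2 of 5 rose and 2 fell for H4. H2BC12L, named for its likeness to H2BC12, rose by 0.80 (adjusted p = 8.14e-09).

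The 4 cluster probe sets that fell on average belonged to H3 and H4. The H4 probe set 205967_at, annotated to 14 H4 genes, fell in every setting. Signals at 84 h in TS cells were 225, 227 and 242 with the induced ALK hairpin and 627, 647 and 639 with the mutated hairpin, against 542, 572 and 617 in uninduced cells. At 72 h in TS cells they were 348, 324 and 432 with the ALK hairpin, against 722, 661 and 875 uninduced. In Su-DHL1 cells at 72 h they were 428, 517 and 428 with the ALK hairpin, against 611, 664 and 650.4 uninduced. The groups did not overlap, and the average log2 fold change was -0.92 ± 0.06 (adjusted p = 2.69e-11, limma). H3C7 changed by -0.59 ± 0.10, the H4 probe set 208026_at by -0.32 ± 0.12 and H4C5 by -0.31 ± 0.11 (adjusted p = 4.72e-05, 0.0309 and 0.0266). Of these, 208026_at entered the fit only through arrays without the induced ALK hairpin, so it was bound to lie lower with that hairpin.

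Counted by setting, the cluster probe sets rose most often in TS cells at 84 h. There 22 of 37 rose and 3 fell, with a median log2 fold change of 0.68, beside 37.7% called (20.7% higher, 17% lower) and a median of 0.06 over all probe sets. In TS cells at 72 h 10 rose and 5 fell (median 0.29, beside 31% called, 17.4% higher and 13.6% lower, and a median of 0.07), and in Su-DHL1 cells at 72 h 19 rose and 1 fell (median 0.60, beside 21.7% called, 12.5% higher and 9.19% lower, and a median of 0.08). Through both arms the counts were 18 and 2 of 28 at 84 h, 8 and 4 at 72 h, and 17 and 1 in Su-DHL1 cells. With the ACTB ratio in the model 13 cluster probe sets rose and 1 fell in TS cells at 84 h, and 9 rose and 1 fell at 72 h. In all 3 settings 10 cluster probe sets rose, among them H2AC6, H2BC5 (both probe sets), H2BC12 and H1-2, and 1 fell, 205967_at, beside 8.23% of all probe sets higher and 7.02% lower in all 3. Over the 28 that passed in both arms, 8 rose and 1 fell in all 3, since 214455_at and 206110_at passed only with the ALK hairpin. The settings share no arrays.

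**Figure D3:**
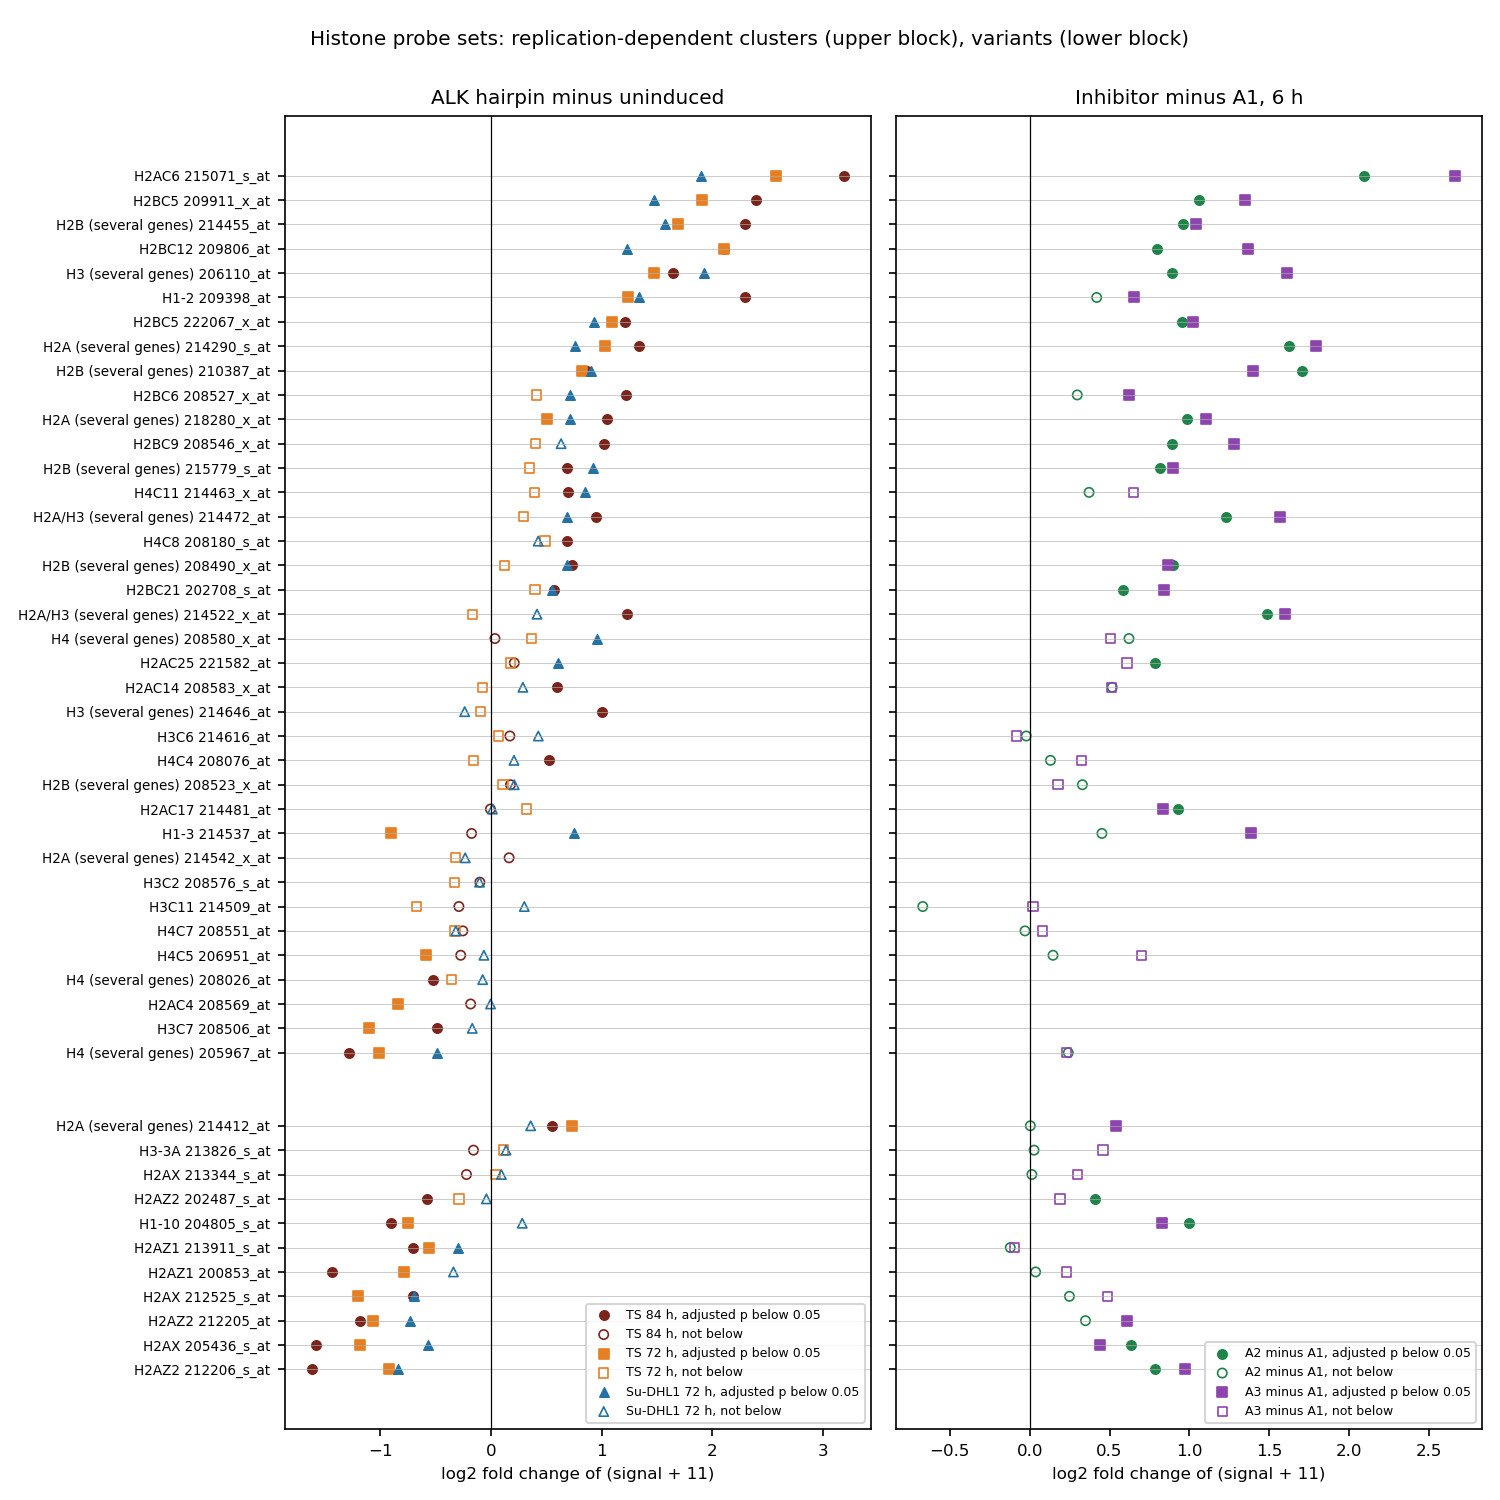
Log2 fold change of (signal + 11) for each of the 37 replication-dependent (upper block) and 11 variant (lower block) probe sets tested, ordered within each block by the average over the 3 ALK hairpin settings; filled symbols have an adjusted p below 0.05 (limma). H2A and H2B probe sets lead the upper block to the right, and most variants lie left of 0 after the ALK hairpin (left panel) and at or right of 0 with A2 and A3 (right panel).

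Variant genes mostly moved the other way after ALK knockdown. H2AZ2, one of the genes for H2A.Z, which is placed at promoters, fell in 2 of its 3 probe sets in every setting. Signals at 84 h in TS cells were 185, 253 and 234 with the induced ALK hairpin and 527, 503 and 441 with the mutated hairpin, against 579, 451 and 535 in uninduced cells. TS cells at 72 h gave 235, 273 and 287 with the ALK hairpin, against 545, 632 and 522 uninduced. Su-DHL1 cells gave 293, 341 and 354 with the ALK hairpin, against 550.2, 572 and 537 uninduced. Induced arrays lay below all others of their setting, and the average log2 fold change was -1.0 ± 0.07 (adjusted p = 3.89e-11, limma). The probe set 212206_s_at fell by 1.13 on the log2 scale (adjusted p = 3.95e-08), with signals of 59.3, 75.7 and 112 against 230.1, 357 and 234 uninduced at 84 h. In Su-DHL1 cells its log2 fold change was -0.84 ± 0.21, and the adjusted p of 0.00519 became 0.0522 without replicate 1 of the ALK hairpin. The third, 202487_s_at, fell by 0.30 (adjusted p = 0.0185), and of the 3 settings only TS at 84 h passed the test alone.

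H2AX fell as well. Signals at 84 h in TS cells were 206, 255 and 279 with the induced ALK hairpin and 841, 913 and 1035 with the mutated hairpin, against 859, 720.2 and 688 in uninduced cells. The TS arrays at 72 h gave 318, 311 and 269 with the ALK hairpin, against 841, 647 and 610.2 uninduced. The Su-DHL1 arrays gave 605, 664 and 624 with the ALK hairpin, against 976, 859 and 984 uninduced. The groups did not overlap, and the log2 fold change was -1.58 ± 0.13 at 84 h and -1.18 ± 0.13 at 72 h in TS cells and -0.56 ± 0.13 in Su-DHL1 cells (average -1.11 ± 0.07, adjusted p = 8.99e-12, limma). A second H2AX probe set, 212525_s_at, fell by 0.87 on average (adjusted p = 6.72e-06). In Su-DHL1 cells its adjusted p was 0.0307, and it lay between 0.0542 and 0.0847 when any 1 of the 6 arrays was left out. The probe set 213344_s_at did not pass the test: its average log2 fold change was -0.03 ± 0.11 (adjusted p = 0.866), and 212524_x_at, also of H2AX, did not pass the filter.

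H2AZ1, the other H2A.Z gene, fell on average through both of its probe sets. Signals at 84 h in TS cells were 1710, 1542 and 984 with the induced ALK hairpin and 3745, 3802 and 3773 with the mutated hairpin, against 3924, 3881 and 3450.3 in uninduced cells. In TS cells at 72 h the values were 2222, 2002 and 2504 with the ALK hairpin, against 3921, 3679 and 3959 uninduced. For Su-DHL1 the values were 3387, 3617 and 2975 with the ALK hairpin, against 4539, 4334 and 3755 uninduced. Its log2 fold change was -1.44 ± 0.14 at 84 h and -0.78 ± 0.14 at 72 h in TS cells, and -0.34 ± 0.14 in Su-DHL1 cells, where it missed the threshold (adjusted p = 0.0857). The second probe set, 213911_s_at, fell in all 3 settings, by 0.52 on average (adjusted p = 1.03e-07). The one variant probe set that rose, 214412_at, is annotated to 3 H2A.B genes, whose product is a short H2A best known from testis. It rose by 0.55 (adjusted p = 2.39e-05). The single probe set with H3-3A alone, 213826_s_at, did not pass the test (log2 fold change 0.03 ± 0.09, 95% interval -0.15 to 0.22, adjusted p = 0.811). H2AJ, a variant linked to senescent cells, and H2AP did not pass the filter.

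By setting, 1 variant probe set rose and 8 of 11 fell in TS cells at 84 h, 1 rose and 7 fell at 72 h, and none rose and 5 fell in Su-DHL1 cells, with medians of -0.71, -0.75 and -0.30. Over all probe sets the shares in those settings were 20.7%, 17.4% and 12.5% higher and 17%, 13.6% and 9.19% lower. The 5 that fell in every setting (beside 7.02% of all probe sets) were 2 of H2AZ2 (212205_at and 212206_s_at), 2 of H2AX (205436_s_at and 212525_s_at) and 213911_s_at of H2AZ1. The 8 probe sets annotated to an H3.3 gene together with another symbol, which the symbol rule left out, gave 0 higher and 4 lower on average, with a median of -0.24. Over all probe sets 27.8% were higher and 19.9% lower in that average. H3.3 is the variant placed in chromatin outside replication.

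Against the mutated hairpin, with doxycycline in both arms, the classes parted in the same directions. At 84 h 23 of 37 cluster probe sets were higher with the ALK hairpin than with A5M and 1 was lower, and 1 variant probe set was higher and 8 lower, beside 39.6% called over all probe sets (22% higher, 17.6% lower). The medians were 1.04 for the cluster probe sets, -0.88 for the variants and 0.07 for all. Over the 28 cluster probe sets that passed in both arms, 19 were higher and 1 was lower, with a median of 1.12. H2AC6 was higher by 3.26 and H2BC5 by 2.99, and H1-2 by 2.60 (adjusted p = 9.16e-16, 7.31e-15 and 3.05e-10, limma). Among the variants the log2 fold change was -1.87 ± 0.13 for H2AX and -1.45 ± 0.14 for H2AZ1. The probe set 212206_s_at of H2AZ2 changed by -1.22 ± 0.21 (adjusted p = 4.69e-05), and its adjusted p was 0.0668 with the ACTB ratio in the model, a ratio that averaged 1.27 with the ALK hairpin and 1.52 with A5M. This comparison shares the ALK hairpin arrays with that against uninduced cells.

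Few histone probe sets differed between cells with the mutated hairpin under doxycycline and uninduced cells. The inducer, the hairpin and the transduced cells all differed between these groups. Against uninduced cells 3 of 37 cluster probe sets were lower with A5M, none higher, and no variant was called, beside 5.51% called over all probe sets (2.46% higher, 3.04% lower). The 3 were H2AC17 (-1.13 ± 0.29, adjusted p = 0.0219), the H2B probe set 208523_x_at (-1.07 ± 0.30, 0.0333) and H2BC5 (-0.60 ± 0.12, 0.00442), and H2BC12L was lower too (limma). The median over the cluster probe sets was -0.23, with 32 of 37 below 0, while the medians of the variants and of all probe sets were 0.01 and 0.00. The 4 histone calls of this comparison fell to 1 without uninduced replicate 2 or A5M replicate 3 and to 2 without uninduced replicate 3. With the fit restricted to these 6 arrays none was called (8 at an unadjusted p under 0.05).

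The response at 84 h did not differ detectably from that at 72 h in TS cells for any histone probe set (limma, 0 called, 13 at an unadjusted p under 0.05, beside 0.789% called over all probe sets, 0.209% higher and 0.58% lower). For H2AC6 the 2 responses differed by 0.62 ± 0.16 (95% interval 0.28 to 0.95, adjusted p = 0.0884) and for H1-2 by 1.06 ± 0.28 (0.47 to 1.64, 0.0923). For H2AZ1 the difference was -0.66 ± 0.19 (-1.06 to -0.25, 0.154). These intervals leave room for sizable differences between the times.

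Between the lines, 5 histone probe sets responded differently at 72 h (4 cluster and 1 variant, beside 2.73% called over all probe sets, 1.52% higher and 1.21% lower). The H2BC12 (209806_at) signals were 1332, 1468 and 1272 in Su-DHL1 cells with the ALK hairpin against 611, 620.2 and 491 uninduced, and 994, 998 and 846 in TS cells with the ALK hairpin against 199.8, 222 and 209.8 uninduced. H2BC12 was brighter in Su-DHL1 in both states, and its response there was smaller, with a difference of -0.88 ± 0.17 (adjusted p = 0.00319, limma). H2AC6 likewise responded less in Su-DHL1, by -0.67 ± 0.16 (adjusted p = 0.0219). H1-10, a linker histone variant also called H1X, responded differently in the 2 lines. The H1-10 (204805_s_at) signals were 378, 398 and 434 in Su-DHL1 cells with the ALK hairpin against 356, 346 and 288 uninduced, and 277, 339 and 231 in TS cells with the ALK hairpin against 476, 451 and 507 uninduced. It fell in TS cells by 0.75 at 72 h and by 0.90 at 84 h, whereas in Su-DHL1 cells its log2 fold change was 0.28 ± 0.13 (adjusted p = 0.144), and the difference was 1.04 ± 0.19 (adjusted p = 0.00211). H1-3 differed between the lines too, at low signal. The H1-3 (214537_at) signals were 26.9, 54.8 and 63.7 in Su-DHL1 cells with the ALK hairpin against 35.9, 19.2 and 16.5 uninduced, and 27.7, 34.5 and 64.9 in TS cells with the ALK hairpin against 67.5, 93.9 and 94.4 uninduced. It rose in Su-DHL1 cells and fell in TS cells at 72 h, with a difference of 1.65 ± 0.37 (adjusted p = 0.0129), which was 0.0514 without replicate 1 of TS cells with the ALK hairpin. H3C7 differed by 0.93 ± 0.25 (adjusted p = 0.0488), a call lost without any 1 of the 12 arrays. H2AC6 lost its call (0.0522 to 0.0765) without replicate 1 or 2 of TS cells with the ALK hairpin, uninduced TS replicate 3, replicate 1 of Su-DHL1 cells with the ALK hairpin, or uninduced Su-DHL1 replicate 1 or 2. The count of 5 fell to 2 without replicate 1 of TS cells with the ALK hairpin and to 3 without its replicate 2, without replicate 1 of Su-DHL1 cells with the ALK hairpin, or without uninduced Su-DHL1 replicate 1 or 2. With the ACTB ratio in the model none of the 5 was called (8 histone probe sets at an unadjusted p under 0.05).

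**Figure D4:**
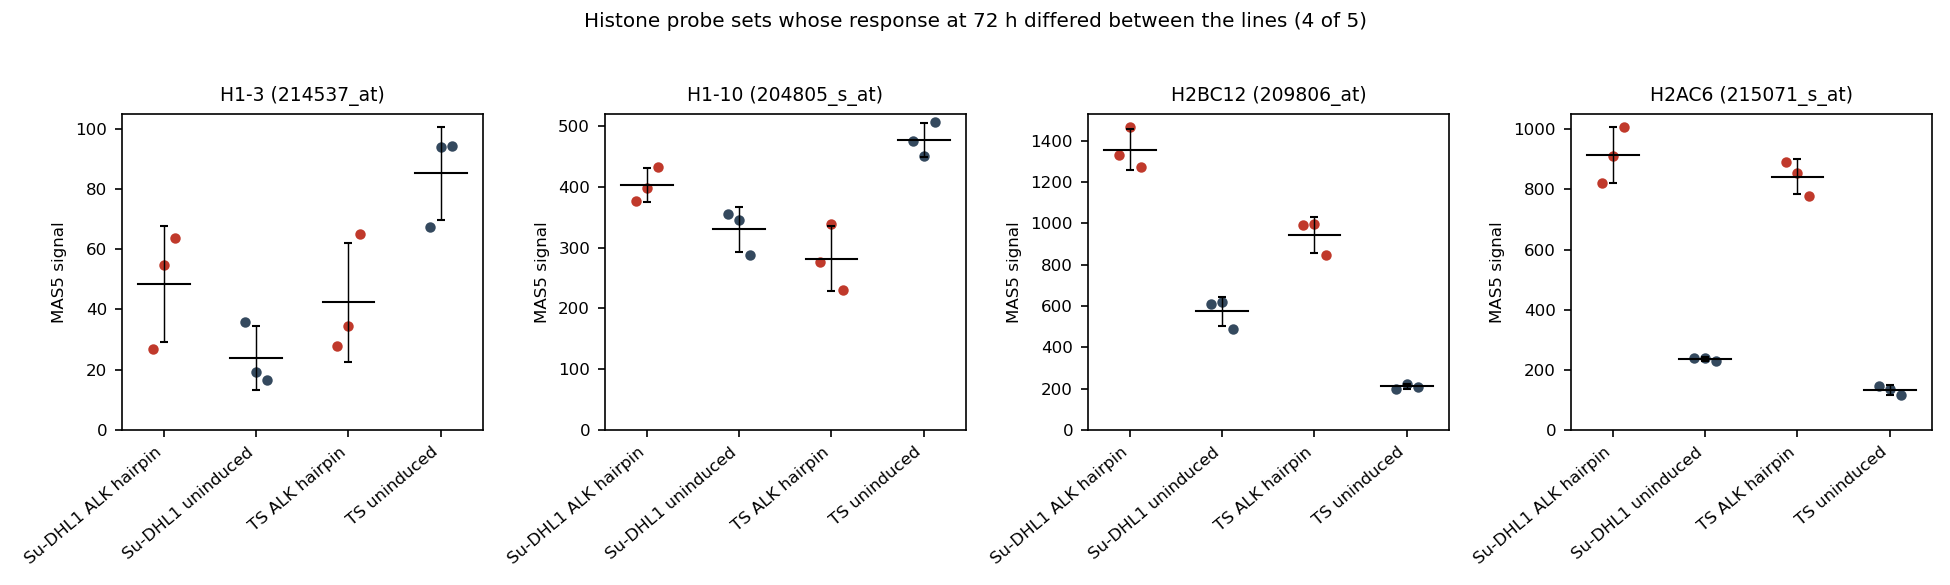
MAS5 signal on each array at 72 h (linear axes from 0) of 4 of the 5 histone probe sets whose response differed between Su-DHL1 and TS cells; lines are means, bars SDs, red the induced ALK hairpin. H2BC12 and H2AC6 rise in both lines, while H1-3 and H1-10 are lower with the ALK hairpin in TS cells and not in Su-DHL1 cells.

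Some histone probe sets differed between the uninduced lines, at counts not far from the shares over all probe sets. Uninduced Su-DHL1 cells had 4 cluster probe sets higher and 5 lower than uninduced TS cells, and 2 variant probe sets higher and 1 lower (19% of all probe sets called, 9.55% higher and 9.44% lower). The largest were H4C11 (-1.55 ± 0.19), the H4 probe set 208580_x_at (-1.51 ± 0.21) and H1-3 (-1.49 ± 0.26), all lower in Su-DHL1 (adjusted p = 2.21e-06, 9.94e-06 and 0.00022, limma). H2BC12 was higher in Su-DHL1 by 1.39. Of the variants, 214412_at (0.62 ± 0.16) and H2AX (0.43 ± 0.13) were higher and H1-10 (-0.52 ± 0.13) lower in Su-DHL1. The call for H2AX was lost (adjusted p 0.0624 to 0.105) without uninduced TS replicate 2 or 3 or uninduced Su-DHL1 replicate 1 or 3, and that for 214412_at (0.0539) without uninduced TS replicate 1.

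After 6 h of ALK inhibitor, cluster probe sets were higher and none was lower. With A2, 17 of 30 cluster probe sets were higher than with A1, with a median log2 fold change of 0.79, beside 31.6% called (18.3% higher, 13.3% lower) and a median of 0.03 over all 14565 probe sets tested. With A3, 19 of 30 were higher, with a median of 0.86, beside 31.3% called (17.8% higher, 13.4% lower) and a median of 0.04. Over the 19 that passed in both arms, 10 were higher with A2 and 11 with A3, with medians of 0.62 and 0.65. With the ACTB ratio in the model 10 cluster probe sets were higher with A2 and 11 with A3. Both comparisons use the same A1 arrays.

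H2AC6 again led. Signals were 434, 491 and 447 with A2 and 661, 730 and 669 with A3, against 94.3, 89.4 and 114 with A1 and 100.4, 85.5 and 80.6 in U. The groups stood apart without overlap, and its log2 fold change was 2.09 ± 0.13 with A2 and 2.67 ± 0.13 with A3 (adjusted p = 3.79e-09 and 2.13e-10, limma). For the H2A probe set 214290_s_at, signals were 643, 841 and 725 with A2 and 737, 1050.1 and 717 with A3, against 237, 209 and 245 with A1 and 263, 223 and 259 in U. Its log2 fold change was 1.63 ± 0.15 with A2 and 1.79 ± 0.15 with A3 (adjusted p = 3.62e-07 and 1.16e-07). The H2B probe set 210387_at rose by 1.71 with A2 and 1.40 with A3, and the H3 probe set 206110_at by 0.89 and 1.61; the adjusted p of 206110_at with A3 was 0.000971, and 0.106 with the ACTB ratio in the model. Both passed the filter only through A2 or A3 arrays and lay under the 40th percentile with A1 and in U, so they were bound to be higher with the inhibitors. H2BC12 rose by 0.80 with A2 and 1.37 with A3, and H2BC5 by 1.06 and 1.35. H1-2 rose with A3 (0.65 ± 0.17, adjusted p = 0.00703), while with A2 its value was 0.42 ± 0.17 (adjusted p = 0.0701). By family, 9 of 11 H2B and 5 of 6 H2A probe sets were higher with A2, 1 of 3 for H3 and none of 6 for H4. With A3 the counts were 10 of 11, 4 of 6, 1 of 3 and none of 6. The shares of all probe sets called higher were 18.3% with A2 and 17.8% with A3. Over the probe sets that passed in both arms, 6 of 8 H2B and 4 of 5 H2A probe sets were higher with A2, and 7 of 8 and 3 of 5 with A3. The 1 H3 and 4 H4 probe sets left there were not called with either.

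Variants did not fall with the inhibitors. With A2, 4 of 11 variant probe sets were higher, and with A3 5 of 11, beside 18.3% and 17.8% of all probe sets. The variant medians were 0.25 and 0.46. The H1-10 (204805_s_at) signals were 588, 559.7 and 506 with A2 and 416, 595 and 466 with A3, against 399, 253 and 193 with A1 and 301, 378 and 345 in U. The A1 values of H1-10 were widely spread, and its log2 fold change was 1.00 ± 0.20 with A2 and 0.83 ± 0.20 with A3 (adjusted p = 0.000893 and 0.0039, limma). H2AX 205436_s_at rose by 0.63 and 0.44, and H2AZ2 212206_s_at by 0.79 and 0.97. The signals of 205436_s_at with A3 (1012 to 1413) overlapped those in U (866 to 1084). The H2AX probe sets 212525_s_at (0.25 with A2 and 0.49 with A3) and 213344_s_at (0.01 and 0.30) were not called with either inhibitor. H2AZ2 212205_at rose with A3 (0.61 ± 0.15, adjusted p = 0.00533). With the ACTB ratio in the model the adjusted p was 0.0504 and 0.0994 for H1-10 (A2 and A3), 0.0926 for H2AX with A2, and 0.104 for 212205_at with A3. H2AZ1 did not pass the test with A2 (0.04 ± 0.19) or A3 (0.23 ± 0.19). Of the 8 H3.3 probe sets outside the symbol rule, 1 was higher with A2 and 3 with A3, beside the same 18.3% and 17.8% of all.

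A3 and A2 were not told apart by any histone probe set after adjustment. All compounds were used at the same dose and time, and 3 pairs were compared (A2 with A1, A3 with A1, A3 with A2), with p-values adjusted over all probe sets within each pair. Between A3 and A2 none of the 42 was called (limma, 8 at an unadjusted p under 0.05, 0.0412% called over all probe sets, 0.0206% in each direction). The difference was 0.58 ± 0.13 for H2AC6 (95% interval 0.31 to 0.84, adjusted p = 0.113), 0.57 ± 0.12 for H2BC12 (0.32 to 0.82, 0.0871) and 0.29 ± 0.13 for H2BC5 (0.02 to 0.56, 0.49). All 3 unadjusted intervals lay above 0, so a missed threshold over all probe sets does not show that A2 and A3 acted alike. Between A1 and U none was called either (1 at an unadjusted p under 0.05, 0.0412% called, 0.0275% higher and 0.0137% lower). There the difference was 0.14 ± 0.13 for H2AC6 (-0.13 to 0.41) and -0.32 ± 0.20 for H1-10 (-0.74 to 0.10).

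Set side by side, many cluster probe sets were called higher in both experiments, while some variant probe sets differed in direction between them. The 2 experiments share no arrays. Of the 30 cluster probe sets tested in both, 16 were higher with both A2 and A3, and 14 of these also rose in the hairpin average, beside 14.1% and 8.04% of the 14209 probe sets tested in both. Over the 19 that passed in both arms of both experiments, 9 were higher with both inhibitors, and all 9 also rose in the hairpin average. Those 16 share the A1 arrays as their base. Among the 11 variants, 5 were higher with A2 or A3 and lower in the hairpin average, beside 3.23% of all (202487_s_at, 212205_at and 212206_s_at of H2AZ2, 205436_s_at of H2AX and 204805_s_at of H1-10). With the ACTB ratio in the model, H1-10 lost its calls with both inhibitors, 205436_s_at with A2 and 212205_at with A3. H1-10 was called lower after the hairpin in TS cells and not in Su-DHL1 cells.

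In lists of genes that act in histone transcription, processing and assembly, more fell than rose after the ALK hairpin. Here and below, each listed gene was read through 1 probe set, the tested one with the highest mean log2 signal. The shares beside these counts take in all tested probe sets, dim ones included. Of 36 tested genes of histone transcription and 3' end processing, 21 fell and 2 rose on average, beside 19.9% of all probe sets lower and 27.8% higher, with a median log2 fold change of -0.29. SLBP, the stem-loop binding protein, fell by 0.95 (adjusted p = 1.48e-12, limma), and NPAT and CASP8AP2, which act at cluster promoters and in the histone locus body, fell by 0.29 and 0.34 (adjusted p = 0.0229 and 0.00386). Taken setting by setting, NPAT was not called in any, and CASP8AP2 was called only in TS cells at 72 h. HINFP and GON4L, also on the list, were not called on average (-0.04 and 0.07, adjusted p = 0.733 and 0.459, limma). LSM3, of the ring that binds RNA in decay and splicing, fell by 1.00. Many that fell are general RNA factors not particular to histones. Among them were SNRPB, SNRPD3, SNRPE, SNRPF, SNRPG, LSM2, LSM4, LSM5, LSM6 and LSM7. Of 42 tested genes of the chaperone and assembly list 26 fell and 5 rose (median -0.31). The largest rise was that of TBCD (0.94, adjusted p = 1.34e-06, limma), a tubulin folding cofactor and not a histone chaperone. CHAF1A and CHAF1B, subunits of the CAF-1 complex that loads H3 and H4 at forks, fell by 0.76 and 2.01. ASF1B, which hands H3 and H4 on, fell by 1.23, whereas ASF1A rose by 0.52. NASP, which holds soluble H3 and H4, fell by 1.39, HJURP, the chaperone of CENP-A, by 1.64, and SSRP1, of the FACT complex, by 1.04. ATRX, which with DAXX places H3.3, rose by 0.77, and TSPYL1, of the NAP family, by 0.82. MACROH2A1 rose by 0.36 and CENPA, the centromeric H3, fell by 0.85, the 2 measured variants whose symbols lie outside the rule.

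All 38 tested S phase genes fell on average, with a median of -1.51, beside 19.9% of all probe sets called lower. MCM2, a helicase subunit that also binds histones, fell by 2.29. In bulk RNA, fewer cells in S phase and less RNA per cell cannot be told apart. In Su-DHL1 cells 30 of the 38 fell, with a median of -0.86, and in TS cells 38 at 84 h and 37 at 72 h, with medians of -1.97 and -1.55. Many H2A and H2B cluster probe sets, and H1-2, thus rose in the same arrays in which S phase genes, SLBP among them, fell. The H3 and H4 probe sets that passed in both arms did not share this rise on average. None of 2 rose and 1 fell for H3, and 2 of 5 rose and 2 fell for H4.

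With the inhibitors calls in those lists went both ways. Of the 38 S phase genes 13 were higher and 1 lower with A2 (median 0.30), and 10 were higher and 4 lower with A3 (median 0.01). Of the 42 genes of the chaperone and assembly list 12 were higher and 3 lower with A2, and 10 and 3 with A3. TBCD was called with neither. Of the 36 genes of histone transcription and 3' end processing 5 were higher and 3 lower with A2, and 3 and 6 with A3. Over all probe sets 18.3% were higher and 13.3% lower with A2, and 17.8% and 13.4% with A3. ASF1B rose by 1.05 with A2 and 1.08 with A3 (adjusted p = 4.84e-05 and 3.88e-05, limma). SLBP did not pass the test (log2 fold change -0.16 with A2 and -0.30 with A3, adjusted p = 0.411 and 0.112), nor did NPAT, CASP8AP2 or CHAF1A with either inhibitor. NASP rose with A2 (0.41, adjusted p = 0.0168).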

How the data were processed

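Total RNA of 33 samples was hybridised to HG-U133A arrays. Per the submitters' processing notes the authors computed the deposited intensity values with MAS5. These are linear signals, 1 per probe set. For the MAS5 version and scaling target, the sources used here give nothing. Control probe sets (68) were left out. Symbols came from the platform annotation, which can be old. Members, gene lists, tests and the rule for named genes (the largest called changes per class and comparison, and a set of variants and list genes) were chosen with earlier results of these data known.

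The deposited intensity values were taken to log2(signal + 11) without further normalization. Scaling of each array to a common level cannot show a global change in RNA content. Only probe sets that reached the 40th percentile of the array on 3 or more arrays were kept. Group means were fitted by limma 3.58.1 (lmFit, eBayes with trend; R version 4.3.3), separately for the 21 hairpin arrays (15338 probe sets) and the 12 inhibitor arrays (14565). Two-sided p-values were adjusted over all probe sets tested in a comparison (Benjamini-Hochberg). The fit was tested on simulated data with known changes. The precision is limited by 3 arrays per group. Replicate numbers did not pair the samples: 2 of 30 correlations of same-numbered deviations exceeded 0.1 (range -0.194 to 0.103). Alternatives were another added value, other filters, quantile normalization, the ACTB ratio in the model, a replicate block, 1 probe set per symbol set, only the arrays compared, and leaving out each array. A filter in both arms was chosen after seeing the data. Plots were made in matplotlib 3.10.9 (Python 3.11.15).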

Additional observations from a re-analysis of the deposited data

Results flagged for a closer look

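In all, 5 histone probe sets responded differently to the ALK hairpin in Su-DHL1 and in TS cells at 72 h, by limma's test of the difference itself. The difference (Su-DHL1 minus TS, log2) was 1.65 ± 0.37 for H1-3 (adjusted p = 0.0129), 1.04 ± 0.19 for H1-10 (0.00211) and 0.93 ± 0.25 for H3C7 (0.0488). It was -0.88 ± 0.17 for H2BC12 (0.00319) and -0.67 ± 0.16 for H2AC6 (0.0219). H3C7 kept an adjusted p below 0.05 in 2 of 20 alternatives, H2AC6 in 14 of 21, H1-3 in 19 of 21, and H1-10 and H2BC12 in 20 of 21 each. The ACTB ratio averaged 1.36 induced against 1.39 uninduced in Su-DHL1 cells and 1.32 against 1.59 in TS cells, and with that ratio in the model none of the 5 was called; its part was not tested further.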

How the results depend on the processing

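Of 1084 values of the 62 named log2 fold changes under the alternatives, 1023 kept their direction and their side of the threshold, 61 kept their direction and lost the call (15 of them with the ACTB ratio in the model), and 0 reversed. Counts of histone probe sets called moved by more than 1.5 times as follows, and the cause was not tested. With the ACTB ratio in the model they were 20 against 35 for TS at 84 h, 13 against 24 for TS at 72 h, 23 against 35 on average, 0 against 5 between lines, 6 against 12 between uninduced lines, 11 against 22 for A2 and 13 against 25 for A3. These counts have no share over all probe sets of the same model beside them. With 1 probe set per symbol set, which leaves fewer to test, Su-DHL1 gave 17 against 26. For the mutated hairpin against uninduced cells the 4 calls became 2 with no filter and 0 with only the arrays compared. For 84 h against 72 h, 0 became 2 with 32 added and 2 with quantile normalization. Leaving out 1 array gave 25 to 32 calls for TS at 84 h, 33 to 35 against the mutated hairpin, 1 to 5 for the mutated hairpin, 20 to 24 for TS at 72 h, 20 to 24 for Su-DHL1, 32 to 36 on average, 2 to 5 between lines, 0 to 1 between times, 9 to 13 between uninduced lines, 17 to 22 for A2, 22 to 28 for A3, and 0 for A3 against A2 and A1 against U. With the replicate block the counts were 34, 34 and 4 at 84 h (against uninduced cells, against the mutated hairpin, and mutated hairpin), 24 for TS at 72 h, 25 for Su-DHL1, 35 on average, 4 between lines, 0 between times, 12 between uninduced lines, 21 for A2, 26 for A3, and 0 for A3 against A2 and A1 against U. Of the named values the block ended 1 call, H3C7 between lines (adjusted p = 0.0684, limma). Probe sets under the 40th percentile, 28 histone ones among them, allow no statement.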
